A study of Mus musculus with 6 samples.

Results

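The transcripts described here are 10 genes that serve osteoclasts, the multinucleated cells that dissolve bone: Tnfrsf11a, Oscar, Calcr, Nfatc1, Mitf, Dcstamp, Ocstamp, Atp6v0d2, Acp5 and Ctsk. They were found by gene symbol, 1 row each, among the 54532 genes of the deposited tables. The cells were RAW264.7, an established mouse macrophage line that can form osteoclast-like cells when given the cytokine RANKL. They were grown for 3 days on zinc-based scaffolds that all carried a CaP (calcium phosphate) coating. The metal under the coating was Zn0.8Mn0.1Li (with manganese and lithium), Zn0.8Mn (with manganese) or Zn, and each had 2 libraries of polyadenylated RNA. All 3 groups therefore shared the line, the coating and zinc. The labels describe no culture without a scaffold, and no osteoclast-inducing factor is listed for any group. Whether both libraries of an alloy were grown as separate cultures is not stated, so p-values measure only the spread between libraries, which may be technical.

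Osteoclasts arise from precursors of the monocyte and macrophage lineage under M-CSF and RANKL. RANKL binds its receptor RANK, and through TRAF6, NF-κB and AP-1 this leads to NFATc1, the transcription factor that carries the programme forward, helped by calcium signals from ITAM-coupled receptors such as OSCAR. NFATc1 works together with MITF and PU.1 at the genes for fusion, acid secretion and matrix breakdown. The mature cell pumps acid onto bone mineral and digests collagen with cathepsin K. Macrophages share parts of the programme: RANK, MITF and cathepsin K are not made by osteoclasts alone.

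Upstream sequence is shown for Acp5, Ctsk and Oscar. In 1 library that stood apart, these 3 members were over 1.5-fold below the mean of the other 5 libraries. Oscar had only 5 counts there. A role of NFATc1, MITF or PU.1 in these levels was not tested. RefSeq windows of 250 bases before an annotated start (build GRCm38.p6) were found for 6 of the 10 members, 11 windows in all. No entry was found for Nfatc1, Dcstamp, Ocstamp and Atp6v0d2. Capitals mark the E-box CANNTG, which MITF-family factors can bind, and the PU.1-type motif GAGGAA, each searched on both strands. GGAAA, the NFAT core, and TGANTCA, an AP-1 motif, were also searched on both strands and are not capitalised. GGAAA can overlap GAGGAA by 4 letters, and CATGTG (the core of the MITF M-box, CACATG on the other strand) is itself an E-box. The first window is 1 of 3 for Acp5, the one that holds CACATG, at chr9:22130599-22130848 on the minus strand, and 10 of its bases lie in an Acp5 exon. The Ctsk window is chr3:95498960-95499209 on the plus strand, and the Oscar window is chr7:3616158-3616407 on the minus strand.
Acp5: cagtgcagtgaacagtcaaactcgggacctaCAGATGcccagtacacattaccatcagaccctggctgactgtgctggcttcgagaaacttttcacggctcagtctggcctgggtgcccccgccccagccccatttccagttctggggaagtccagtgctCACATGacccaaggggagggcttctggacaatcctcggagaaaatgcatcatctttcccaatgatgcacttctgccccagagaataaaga
Ctsk: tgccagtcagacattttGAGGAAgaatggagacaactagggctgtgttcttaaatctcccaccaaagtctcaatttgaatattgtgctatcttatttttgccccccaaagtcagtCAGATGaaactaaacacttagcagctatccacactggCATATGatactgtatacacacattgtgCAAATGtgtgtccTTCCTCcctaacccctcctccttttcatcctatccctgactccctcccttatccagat
Oscar: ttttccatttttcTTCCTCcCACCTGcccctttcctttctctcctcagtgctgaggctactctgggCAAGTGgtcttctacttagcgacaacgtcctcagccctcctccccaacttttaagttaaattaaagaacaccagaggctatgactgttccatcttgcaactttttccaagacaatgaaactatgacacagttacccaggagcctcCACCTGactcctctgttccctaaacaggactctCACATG

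The printed windows held 2 E-boxes for Acp5, 3 for Ctsk and 4 for Oscar, among them 1 CACATG each in Acp5 and Oscar. The Acp5 window was chosen for its CACATG, so that match cannot be set against a background. GAGGAA was present 2 times in Ctsk, 1 time in Oscar and 0 times in Acp5. GGAAA was present 2 times in Acp5, 3 times in Oscar and 0 times in Ctsk, and TGANTCA was in none of the 11 windows. Of all 11 windows of the members, 8 held an E-box, 2 CATGTG, 2 GAGGAA and 7 GGAAA. Over all 32851 RefSeq windows of the same length, 66.2% held an E-box, 12.3% CATGTG, 23.3% GAGGAA, 55.6% GGAAA and 6.75% TGANTCA. A match is no more than a description of the sequence.

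Per gene length, the levels of the 10 transcripts had nearly 1 order in 5 of the 6 libraries. Levels between genes are compared in FPKM, the deposited counts divided by gene length and library size. Over CaP Zn0.8Mn0.1Li replicates 1 and 2, CaP Zn0.8Mn replicate 2 and CaP Zn replicates 1 and 2, Ctsk was highest at 44.0 to 79.1 FPKM. Acp5 followed at 18.1 to 25.5 FPKM. Nfatc1 (10.5 to 12.8 FPKM) and Tnfrsf11a (9.80 to 11.8 FPKM) lay close together and were in that order in 3 of the 5 libraries. Mitf (8.68 to 10.2 FPKM) and Atp6v0d2 (6.95 to 10.9 FPKM) also traded places, with Mitf ahead in 3 of 5. Dcstamp came next at 2.02 to 3.01 FPKM, then Oscar at 0.206 to 0.487 FPKM and Ocstamp at 0.0872 to 0.230 FPKM. Oscar was above Ocstamp in each of the 5, although their ranges meet. Calcr was last at 0 to 0.0165 FPKM. Among all 13156 genes tested, 93.1% had a mean FPKM below that of Ctsk and 5.99% below that of Oscar. The transcripts of resorption enzymes, the receptor RANK and both transcription factors were thus measured at moderate to high levels, and those of Oscar, Ocstamp and Calcr near the floor.

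**Figure D1:**
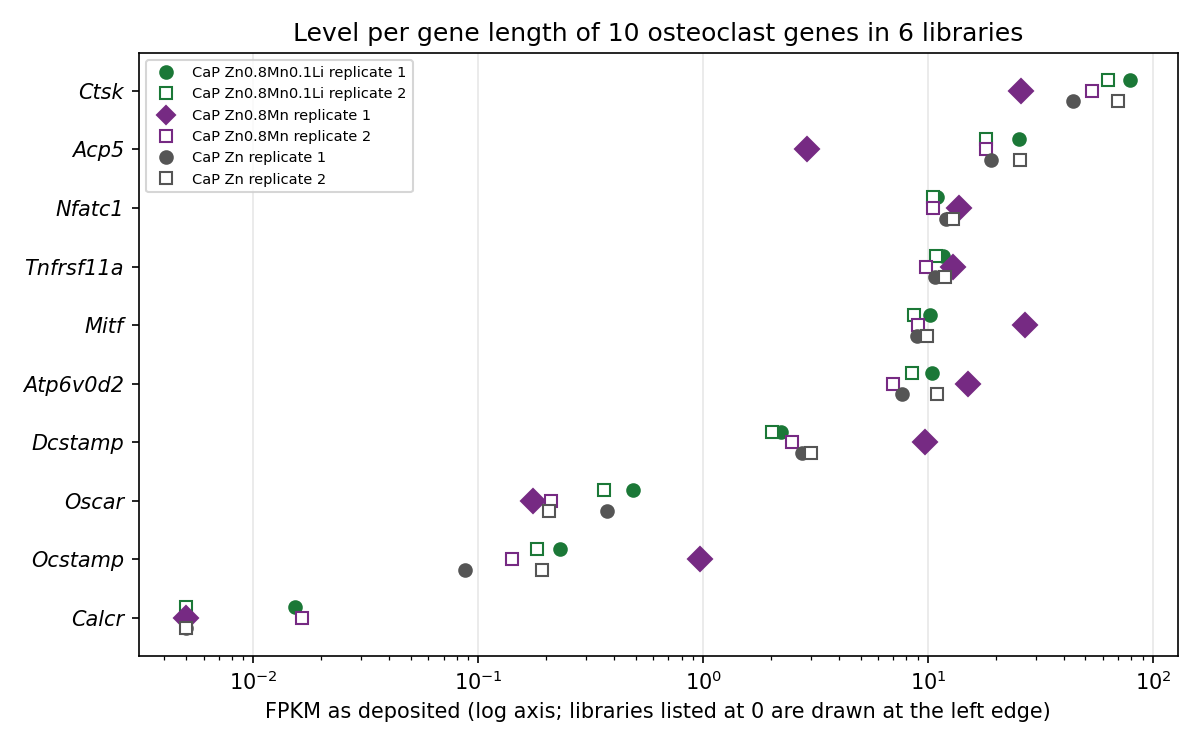
FPKM of the 10 osteoclast genes (log axis) in each of the 6 libraries, colours giving the alloy under the CaP coating and shapes the replicate. Ctsk leads in 5 libraries at 44.0 to 79.1 FPKM, while CaP Zn0.8Mn replicate 1 (diamonds) has Mitf first at 26.8 FPKM and Acp5 at 2.89 FPKM.

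CaP Zn0.8Mn replicate 1 departed from that order, and it stood apart across the whole transcriptome. Its mitochondrial genes took 7.88% of counts, against 1.82% to 2.15% in the other 5 libraries. Its log2 CPM correlated with theirs at r = 0.903 to 0.922, against 0.989 to 0.992 among those 5 (across genes, which are not independent replicates). CPM are counts scaled to library size with TMM factors. Totals of 14944070 to 17709290 counts per library put a floor of 3 counts at 0.169 to 0.201 CPM. This floor was scaled by the totals alone, without TMM factors, and floors cover counting error only. CaP Zn0.8Mn is thus a pair of unlike libraries, and the members' differences that involve it are also given without replicate 1. The part that RNA quality played in the values of this library was not tested.

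The macrophage label was checked with 10 marker genes. Their summed level was 10702 CPM in CaP Zn0.8Mn replicate 1 and 11087 to 16770 CPM in the others, most of it Lyz2. Of the 9 tested, 5 were over 1.5-fold higher in CaP Zn0.8Mn replicate 1 and 2 over 1.5-fold lower, against 27.1% and 28.8% of all tested genes. Of 10 osteoblast and stromal markers, 5 (Col1a2, Ibsp, Dmp1, Pdgfra and Dcn) had 0 counts in every library. Their sum was 7.53 CPM in that library and 13.6 to 17.4 CPM elsewhere, nearly all from Runx2. The 5 dendritic cell markers summed to 21.01 CPM there, 17.5 CPM of it Itgax, against 3.01 to 8.69 CPM elsewhere. Neutrophil markers summed to 0.264 CPM there against 0.699 to 2.17 CPM, and lymphocyte markers to at most 0.132 CPM in any library. In bulk RNA, fewer cells of a kind and less RNA per cell cannot be told apart.

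Among the receptors, Tnfrsf11a, which encodes RANK (ENSMUSG00000026321, chr1:105780718-105847981, plus strand), was near level. It had 70.3 and 65.5 CPM on CaP Zn0.8Mn0.1Li, 79.2 and 58.8 CPM on CaP Zn0.8Mn, and 64.7 and 71.1 CPM on CaP Zn. All 3 groups overlapped, and the library that stood apart read the highest by a small margin. The log2 fold change was -0.00040 ± 0.21 (SE; 95% interval -0.52 to 0.52) for CaP Zn0.8Mn0.1Li relative to CaP Zn and 0.023 ± 0.21 (-0.50 to 0.54) for CaP Zn0.8Mn relative to CaP Zn. Without CaP Zn0.8Mn replicate 1 the interval for CaP Zn0.8Mn0.1Li relative to CaP Zn narrowed to -0.19 to 0.19, and CaP Zn0.8Mn relative to CaP Zn read -0.21 ± 0.11. Exonic 50-base stretches shared with other genes made up 0.59% of this gene.

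Oscar (ENSMUSG00000054594, chr7:3609813-3616157, minus strand), the collagen-binding immunoglobulin-like receptor that signals through the FcRγ chain, was barely detected. It had 15 and 11 counts (0.906 and 0.673 CPM) on CaP Zn0.8Mn0.1Li, 5 and 6 counts (0.330 and 0.388 CPM) on CaP Zn0.8Mn, and 13 and 6 counts (0.699 and 0.384 CPM) on CaP Zn. Both CaP Zn0.8Mn0.1Li libraries were above both CaP Zn0.8Mn libraries, and the CaP Zn pair spanned the gap. The log2 fold change of CaP Zn0.8Mn0.1Li relative to CaP Zn0.8Mn was 1.12 ± 0.55 (SE; -0.25 to 2.49), and 1.01 ± 0.78 without CaP Zn0.8Mn replicate 1. Counts this low leave a wide interval either way. Calcr (ENSMUSG00000023964, chr6:3685680-3764714, minus strand), the calcitonin receptor and a late osteoclast marker, had 1 and 0 counts on CaP Zn0.8Mn0.1Li, 0 and 1 counts on CaP Zn0.8Mn, and 0 counts in both CaP Zn libraries. It was at or under the floor in all 6 libraries and was not tested.

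Nfatc1 (ENSMUSG00000033016), the gene of the factor that carries the osteoclast programme forward, had 81.4 and 78.9 CPM on CaP Zn0.8Mn0.1Li, 105 and 78.1 CPM on CaP Zn0.8Mn, and 90.4 and 96.0 CPM on CaP Zn. Both CaP Zn0.8Mn0.1Li libraries lay below both CaP Zn libraries. For that pair the log2 fold change was -0.22 ± 0.20 (SE; -0.72 to 0.29), and without CaP Zn0.8Mn replicate 1 it was -0.22 ± 0.084 (-0.40 to -0.039), with an unadjusted p of 0.020 and an adjusted p of 0.943. CaP Zn0.8Mn relative to CaP Zn read -0.028 ± 0.20 with all libraries and -0.26 ± 0.10 without that one (unadjusted p = 0.027, adjusted p = 0.967). Neither passed the threshold.

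Mitf (ENSMUSG00000035158, chr6:97807052-98021349, plus strand), whose product partners NFATc1 and PU.1 at osteoclast genes, was level in 5 libraries and high in 1. It had 63.5 and 54.3 CPM on CaP Zn0.8Mn0.1Li, 170 and 56.1 CPM on CaP Zn0.8Mn, and 55.9 and 61.8 CPM on CaP Zn. The 170 CPM of CaP Zn0.8Mn replicate 1 was 2.92 times the mean of the other 5, whose coefficient of variation was 6.97%. With all libraries, the log2 fold change of CaP Zn0.8Mn relative to CaP Zn was 0.95 ± 0.51 (SE; -0.32 to 2.21). Without that library it was -0.067 ± 0.13 (-0.33 to 0.20).

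Dcstamp and Ocstamp encode multipass membrane proteins needed for precursor fusion, and both were highest in CaP Zn0.8Mn replicate 1. Dcstamp (ENSMUSG00000022303, chr15:39745930-39760938, plus strand) had 5.92 and 5.44 CPM on CaP Zn0.8Mn0.1Li, 26.6 and 6.59 CPM on CaP Zn0.8Mn, and 7.37 and 8.06 CPM on CaP Zn. The lowest 2 of the 6 were the CaP Zn0.8Mn0.1Li libraries, so that this group did not overlap either of the others. Its log2 fold change against CaP Zn was -0.44 ± 0.64 (SE; -2.04 to 1.16), or -0.44 ± 0.20 (-0.87 to -0.0074; unadjusted p = 0.047, adjusted p = 0.967) without CaP Zn0.8Mn replicate 1. Against CaP Zn0.8Mn it was -1.54 ± 0.65 with all libraries and -0.21 ± 0.25 without that one.

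Ocstamp (ENSMUSG00000027670, chr2:165393760-165400405, minus strand) had 14 and 11 counts on CaP Zn0.8Mn0.1Li, 55 and 8 counts on CaP Zn0.8Mn, and 6 and 11 counts on CaP Zn. In CPM these were 0.845 and 0.673, then 3.63 and 0.517, then 0.323 and 0.704. The library that stood apart read 5.94 times the mean of the other 5, the largest ratio among the members. Its log2 fold change for CaP Zn0.8Mn relative to CaP Zn was 2.02 ± 0.98 (SE; -0.44 to 4.48) with all libraries and 0.044 ± 0.78 (-1.62 to 1.71) without it. Some 2.80% of its exonic 50-base stretches also occur in other genes, so a few reads may have been assigned either way.

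Atp6v0d2 (ENSMUSG00000028238, chr4:19876841-19922605, minus strand), the d2 subunit of the proton pump's membrane sector and a fusion factor in mouse, had 28.5 and 23.2 CPM on CaP Zn0.8Mn0.1Li, 42.0 and 18.9 CPM on CaP Zn0.8Mn, and 21.1 and 29.7 CPM on CaP Zn. The 3 groups overlapped with one another, CaP Zn0.8Mn holding both the highest and the lowest library. The log2 fold change of CaP Zn0.8Mn0.1Li relative to CaP Zn0.8Mn was -0.24 ± 0.42 (SE; -1.29 to 0.81). Without CaP Zn0.8Mn replicate 1 it was 0.45 ± 0.21 (0.0094 to 0.89), with an unadjusted p of 0.046 and an adjusted p of 1.00, and CaP Zn0.8Mn relative to CaP Zn turned to -0.42 ± 0.21, against 0.26 ± 0.42 with all libraries.

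Transcripts of both resorption enzymes were lowest in CaP Zn0.8Mn replicate 1. Acp5 (ENSMUSG00000001348, chr9:22126727-22135711, minus strand), which encodes the tartrate-resistant acid phosphatase used as the osteoclast stain TRAP, had 51.6 and 37.2 CPM on CaP Zn0.8Mn0.1Li, 6.01 and 36.8 CPM on CaP Zn0.8Mn, and 38.8 and 52.1 CPM on CaP Zn. CaP Zn0.8Mn was below both other groups in all its libraries, and replicate 2 lay just below the lowest library of each. Replicate 1 was 7.20-fold below the mean of the other 5. The log2 fold change of CaP Zn0.8Mn relative to CaP Zn was -1.09 ± 0.78 (SE; -3.04 to 0.87) with all libraries and -0.30 ± 0.22 (-0.81 to 0.20) without replicate 1. An antisense gene, 6530413G14Rik, overlaps Acp5 exons and had at most 1 count in any library. Whether counting used the strand is not given in the sources used here.

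Ctsk (ENSMUSG00000028111, chr3:95499256-95509362, plus strand), which encodes the collagen-degrading protease cathepsin K, had 120 and 96.5 CPM on CaP Zn0.8Mn0.1Li, 40.1 and 81.4 CPM on CaP Zn0.8Mn, and 67.3 and 106 CPM on CaP Zn. The CaP Zn0.8Mn0.1Li libraries both exceeded the CaP Zn0.8Mn libraries, and overlapped with CaP Zn. Replicate 1 of CaP Zn0.8Mn was 2.35-fold below the mean of the other 5. For CaP Zn0.8Mn0.1Li the log2 fold change was 0.84 ± 0.41 (SE; -0.18 to 1.85) against CaP Zn0.8Mn and 0.32 ± 0.40 (-0.69 to 1.34) against CaP Zn. Without that library the first was 0.41 ± 0.34 (-0.56 to 1.39).

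**Figure D2:**
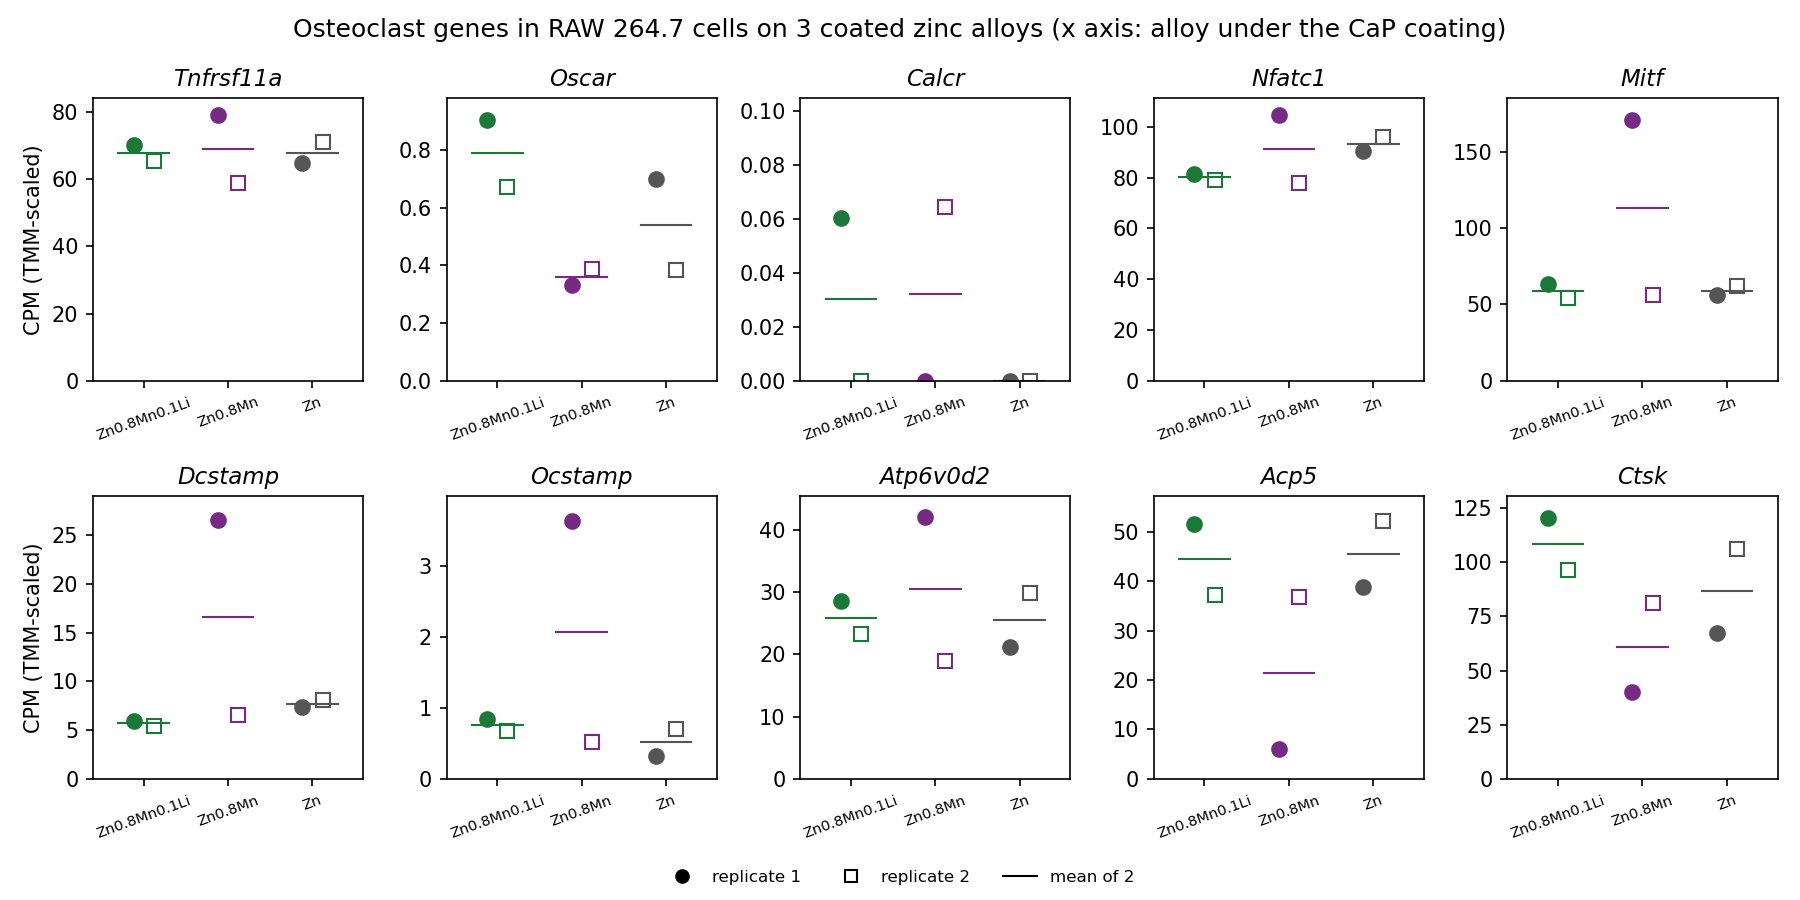
CPM (TMM-scaled, linear axes from 0) of the 10 genes by alloy under the CaP coating, with circles for replicate 1, squares for replicate 2 and lines for the mean of 2. CaP Zn0.8Mn replicate 1 is far above the other libraries for Mitf (170 CPM), Dcstamp (26.6 CPM) and Ocstamp (3.63 CPM) and far below them for Acp5 (6.01 CPM).

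Set side by side, 4 of the 9 tested members were over 1.5-fold higher in CaP Zn0.8Mn replicate 1 than in the mean of the other 5 libraries (Ocstamp, Dcstamp, Mitf and Atp6v0d2), and 3 were over 1.5-fold lower (Acp5, Ctsk and Oscar). Among all tested genes, 27.1% were that much higher and 28.8% that much lower. With 9 genes these counts carry no test. Tnfrsf11a read 1.20 times and Nfatc1 1.23 times the mean of the others. Oscar, at 5 counts there, had 6 counts in each of CaP Zn0.8Mn replicate 2 and CaP Zn replicate 2, so it was not particularly low in this library. Each other library was set against the mean of the rest without CaP Zn0.8Mn replicate 1. On that measure at most 2 of 9 members of a library were past 1.5-fold in either direction. Of all tested genes, 2.45% to 3.47% were that much higher and 3.47% to 5.09% that much lower. These counts of members carry no test either.

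The enzymes and the pump subunit also varied between libraries of the same alloy. On CaP Zn0.8Mn0.1Li, replicate 1 exceeded replicate 2 by 1.39-fold for Acp5, 1.25-fold for Ctsk and 1.23-fold for Atp6v0d2. On CaP Zn, replicate 2 exceeded replicate 1 by 1.34-fold, 1.57-fold and 1.41-fold for the same genes. Of all tested genes, 13.3%, 20.7% and 22.4% had a larger ratio within the CaP Zn0.8Mn0.1Li pair, and 17.9%, 9.64% and 14.3% within the CaP Zn pair. Tnfrsf11a and Nfatc1 differed by at most 1.10-fold in these pairs. Among the other 5 libraries the coefficient of variation was 18.1% for Acp5, 21.9% for Ctsk and 19.3% for Atp6v0d2, against 7.48% for Tnfrsf11a, 9.28% for Nfatc1 and 6.97% for Mitf.

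No osteoclast gene was called in any comparison of alloys by the quasi-likelihood test of edgeR on the counts (adjusted p under 0.05 over all 13156 genes). For CaP Zn0.8Mn0.1Li relative to CaP Zn, 0 of 9 members were called, against a background of 0% of all genes, and their adjusted p was 1.00 throughout. For CaP Zn0.8Mn relative to CaP Zn, 0 of 9 were called against a background of 0%, with adjusted p of 0.773 to 0.968. For CaP Zn0.8Mn0.1Li relative to CaP Zn0.8Mn, 0 of 9 were called against a background of 0%, with adjusted p of 0.680 to 0.956. At an unadjusted p under 0.05 the members numbered 0 in each of these comparisons, and all genes 29, 207 and 316, taken in the same order. DESeq2 called 0 members in each and 0, 1 and 3 genes in all, and limma-voom called 0 members and 0 genes. At an unadjusted p under 0.05, DESeq2 had 0, 0 and 1 members and limma-voom 0 in each. For DESeq2 the share of all tested genes in the last comparison was 5.23%.

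Medians over the 9 tested members lay close to those over all tested genes in the first 2 comparisons. The median log2 fold change was 0.0020 for CaP Zn0.8Mn0.1Li relative to CaP Zn, 0.023 for CaP Zn0.8Mn relative to CaP Zn and -0.19 for CaP Zn0.8Mn0.1Li relative to CaP Zn0.8Mn. All tested genes had medians of 4.7e-05, 0.0048 and -0.0019. These comparisons share groups, so they are not independent of one another.

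Leaving out CaP Zn0.8Mn replicate 1 left 0 members called in each comparison, against backgrounds of 0%, 0.0152% and 0.0152% of genes. The lone CaP Zn0.8Mn library is then assumed to vary like the other groups. In CaP Zn0.8Mn0.1Li relative to CaP Zn, unadjusted p was under 0.05 for 2 of 9 members (Nfatc1 and Dcstamp). The share of all tested genes there was 5.02%, and with 9 genes the count carries no test. DESeq2 on these 5 libraries called no member in any comparison and put none under an unadjusted p of 0.05. Few of all tested genes were called or under that p in the same fit. The direction of the members turned with this one library: in CaP Zn0.8Mn relative to CaP Zn, 8 of 9 were lower (median -0.22) without it, against 4 of 9 (median 0.023) with it. In CaP Zn0.8Mn0.1Li relative to CaP Zn0.8Mn, 8 of 9 were higher (median 0.27) without it, against 3 of 9 (median -0.19) with it. Without it, all tested genes had medians of -0.0084 and -0.0015 in these comparisons. Both sets of directions then rest on the single library CaP Zn0.8Mn replicate 2, so the second largely repeats the first.

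The reverse omission changed the calls. Without CaP Zn0.8Mn replicate 2, which leaves only the library that stood apart, 6 of 9 members were called in CaP Zn0.8Mn relative to CaP Zn and 7 of 9 in CaP Zn0.8Mn0.1Li relative to CaP Zn0.8Mn. The backgrounds were 59.3% and 61.5% of all tested genes. With 9 genes, shares this near the background are no result about the members.

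**Figure D3:**
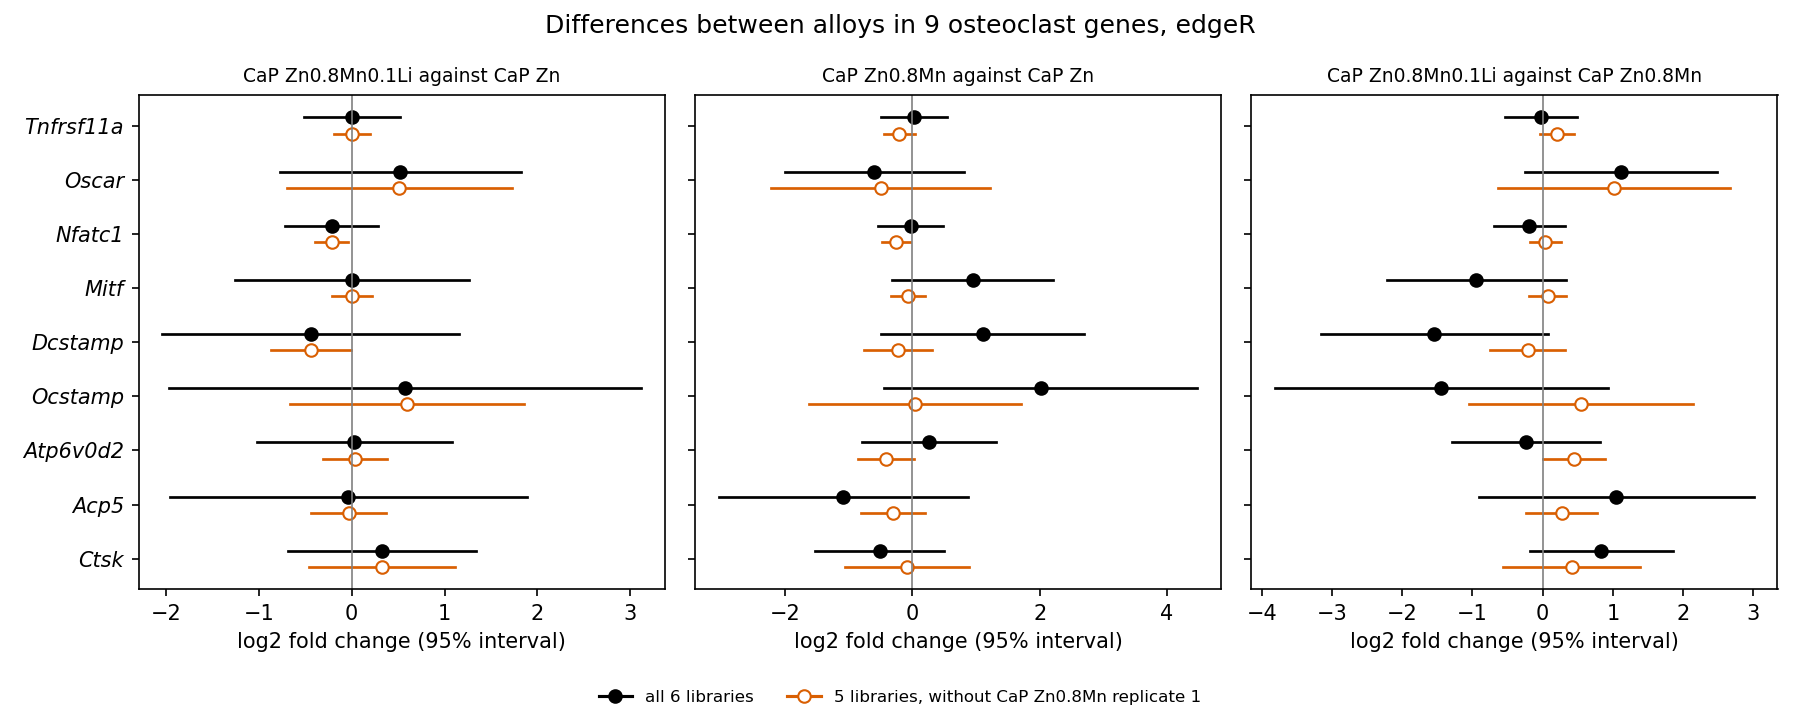
Log2 fold change of the 9 tested osteoclast genes with 95% intervals in the 3 comparisons of alloys, filled circles for all 6 libraries and open circles without CaP Zn0.8Mn replicate 1. For Mitf, CaP Zn0.8Mn relative to CaP Zn reads 0.95 with all libraries and -0.067 without that one.

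Counted by separation of the 4 libraries compared, 0 members were higher and 2 lower (Nfatc1 and Dcstamp) on CaP Zn0.8Mn0.1Li than on CaP Zn without overlap, against 16.7% and 16.8% of all tested genes. For CaP Zn0.8Mn relative to CaP Zn, 0 were higher and 1 lower (Acp5), against 12.5% and 12.8% of genes. For CaP Zn0.8Mn0.1Li relative to CaP Zn0.8Mn, 3 were higher (Acp5, Ctsk and Oscar) and 1 lower (Dcstamp), against 17.1% and 17.5%. Separation of 2 libraries from 2 is thus common among genes in general.

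The rest of the osteoclast pathway was described with 6 gene lists, and 0 genes of any list were called in any of the 3 comparisons by edgeR. Of 22 genes of RANK signal transduction, all were tested, and median log2 fold changes were -0.017 for CaP Zn0.8Mn0.1Li relative to CaP Zn, -0.094 for CaP Zn0.8Mn relative to CaP Zn and 0.11 for CaP Zn0.8Mn0.1Li relative to CaP Zn0.8Mn. Without CaP Zn0.8Mn replicate 1 the last 2 of these medians were -0.085 and 0.068. An unadjusted p under 0.05 was reached by 0 genes with all libraries. Traf6, the adaptor that RANK recruits, had 25.5 and 24.2 CPM on CaP Zn0.8Mn0.1Li, 80.4 and 24.7 CPM on CaP Zn0.8Mn, and 31.4 and 30.8 CPM on CaP Zn. Mapk14, the p38α kinase downstream of it, had 85.1 and 91.8, 194 and 93.0, and 89.8 and 91.3 CPM in the same groups. Both were high only in the library that stood apart. The AP-1 gene Fosl2 had 97.7 and 86.8 CPM on CaP Zn0.8Mn0.1Li, 66.7 and 75.3 CPM on CaP Zn0.8Mn, and 87.9 and 110 CPM on CaP Zn, with CaP Zn0.8Mn lowest in both libraries. Fos, another AP-1 gene, lay between 16.1 and 25.2 CPM and Relb, of the alternative NF-κB arm, between 20.02 and 31.2 CPM in all 6 libraries.

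ITAM co-stimulation and calcineurin, the calcium arm that activates NFATc1, had 13 genes, all tested, with 0 at an unadjusted p under 0.05. Medians were -0.00076 for CaP Zn0.8Mn0.1Li relative to CaP Zn, 0.19 for CaP Zn0.8Mn relative to CaP Zn and -0.19 for CaP Zn0.8Mn0.1Li relative to CaP Zn0.8Mn. Both shifts rested on CaP Zn0.8Mn replicate 1: without it those medians were -0.0068 and -0.017, and 6 of 13 genes were higher on CaP Zn0.8Mn than on CaP Zn, against 10 of 13 with it. Ppp3ca, the calcineurin catalytic subunit that dephosphorylates NFAT, had 59.2 and 63.0 CPM on CaP Zn0.8Mn0.1Li, 169 and 65.5 CPM on CaP Zn0.8Mn, and 70.2 and 74.7 CPM on CaP Zn. The kinase gene Btk (74.3 CPM) and its adaptor Blnk (36.9 CPM) were likewise highest in CaP Zn0.8Mn replicate 1, against 40.5 to 48.2 CPM and 20.4 to 22.6 CPM elsewhere.

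Of 14 genes for the M-CSF receptor, its signalling and lineage transcription factors, 12 were tested, and 0 had an unadjusted p under 0.05. Their median log2 fold changes were -0.022 for CaP Zn0.8Mn0.1Li relative to CaP Zn, -0.018 for CaP Zn0.8Mn relative to CaP Zn and 0.018 for CaP Zn0.8Mn0.1Li relative to CaP Zn0.8Mn. Leaving out CaP Zn0.8Mn replicate 1 gave -0.023 and -0.0049 for the last 2 of these. Csf1r, the M-CSF receptor that keeps precursors alive, had 319 and 324 CPM on CaP Zn0.8Mn0.1Li, 1598 and 374 CPM on CaP Zn0.8Mn, and 362 and 364 CPM on CaP Zn. Its ratio in CaP Zn0.8Mn replicate 1 to the mean of the others was 4.59, larger than that of Mitf. The signalling subunit Pik3r1 read 76.5 CPM in that library against 37.1 to 45.2 CPM, and the adaptor Grb2 122 CPM against 188 to 208 CPM. Tfec, a relative of Mitf, lay between 4.65 and 6.94 CPM in all libraries.

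Among 13 inhibitors of osteoclast formation, 12 were tested, and Tnfrsf11b, the RANKL decoy osteoprotegerin, had 0 counts in all 6 libraries. The list's median log2 fold change was 0.0026 for CaP Zn0.8Mn0.1Li relative to CaP Zn, -0.056 for CaP Zn0.8Mn relative to CaP Zn and 0.30 for CaP Zn0.8Mn0.1Li relative to CaP Zn0.8Mn. Without CaP Zn0.8Mn replicate 1 the second median turned sign, at 0.048, and the third was 0.051. Unadjusted p was under 0.05 for 0, 1 and 1 of the 12 genes in these comparisons with all libraries. The shares of all tested genes were 0.22%, 1.57% and 2.4%. The calcineurin inhibitor Rcan1 read 61.1 CPM in CaP Zn0.8Mn replicate 1 and 30.6 to 43.2 CPM in the others. Lgr4, a RANKL receptor that opposes RANK, read 1.12 CPM against 3.88 to 5.25 CPM, and Bcl6, a repressor of Nfatc1, 40.0 CPM against 51.0 to 72.2 CPM. Irf8, which restrains NFATc1, was near level at 98.3 to 119 CPM in all 6.

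For cell fusion and adhesion all 10 listed genes were tested, with 0 at an unadjusted p under 0.05. Over the list the median log2 fold change was 0.078 for CaP Zn0.8Mn0.1Li relative to CaP Zn, 0.11 for CaP Zn0.8Mn relative to CaP Zn and 0.053 for CaP Zn0.8Mn0.1Li relative to CaP Zn0.8Mn. The last 2 of these were 0.067 and 0.033 without CaP Zn0.8Mn replicate 1. Sirpa, the CD47 receptor that aids macrophage fusion, had 235 and 220 CPM on CaP Zn0.8Mn0.1Li, 727 and 248 CPM on CaP Zn0.8Mn, and 229 and 257 CPM on CaP Zn. Sh3pxd2a, the podosome scaffold Tks5, read 79.1 CPM in the library that stood apart against 20.8 to 25.7 CPM. Adam8, a membrane protease involved in osteoclast fusion, had 376 and 423 CPM on CaP Zn0.8Mn0.1Li, 200 and 388 CPM on CaP Zn0.8Mn, and 309 and 341 CPM on CaP Zn. Itgb3, the β3 chain of the osteoclast integrin, was low at 0.832 to 1.81 CPM.

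Of 18 genes for acid secretion and matrix breakdown, 17 were tested, with 0 at an unadjusted p under 0.05. Here the median log2 fold change was 0.030 for CaP Zn0.8Mn0.1Li relative to CaP Zn, 0.091 for CaP Zn0.8Mn relative to CaP Zn and 0.0042 for CaP Zn0.8Mn0.1Li relative to CaP Zn0.8Mn. Without CaP Zn0.8Mn replicate 1 the last 2 of these were 0.085 and 0.015. Mmp9, a gelatinase of osteoclasts and macrophages, had 73.6 and 82.7 CPM on CaP Zn0.8Mn0.1Li, 6.67 and 70.5 CPM on CaP Zn0.8Mn, and 26.6 and 45.9 CPM on CaP Zn. Both CaP Zn0.8Mn0.1Li libraries exceeded both CaP Zn libraries, as was so for 16.7% of all tested genes. The log2 fold change was 1.11 ± 0.98 (SE), or 1.12 ± 0.29 without CaP Zn0.8Mn replicate 1. In the fit without that library, CaP Zn0.8Mn relative to CaP Zn read 0.97 ± 0.34 and rested on replicate 2 alone. None of these passed the threshold. Tcirg1, the osteoclast pump subunit a3, read 235 CPM in the library that stood apart against 343 to 445 CPM, and the chloride transporter gene Clcn7 50.8 CPM against 71.6 to 87.0 CPM. Atp6v0a1 (105 CPM against 59.6 to 65.2 CPM) and the anion exchanger gene Slc4a2 (57.6 CPM against 25.1 to 27.8 CPM) were higher there. Pump and transporter genes thus lay on both sides in that library.

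**Figure D4:**
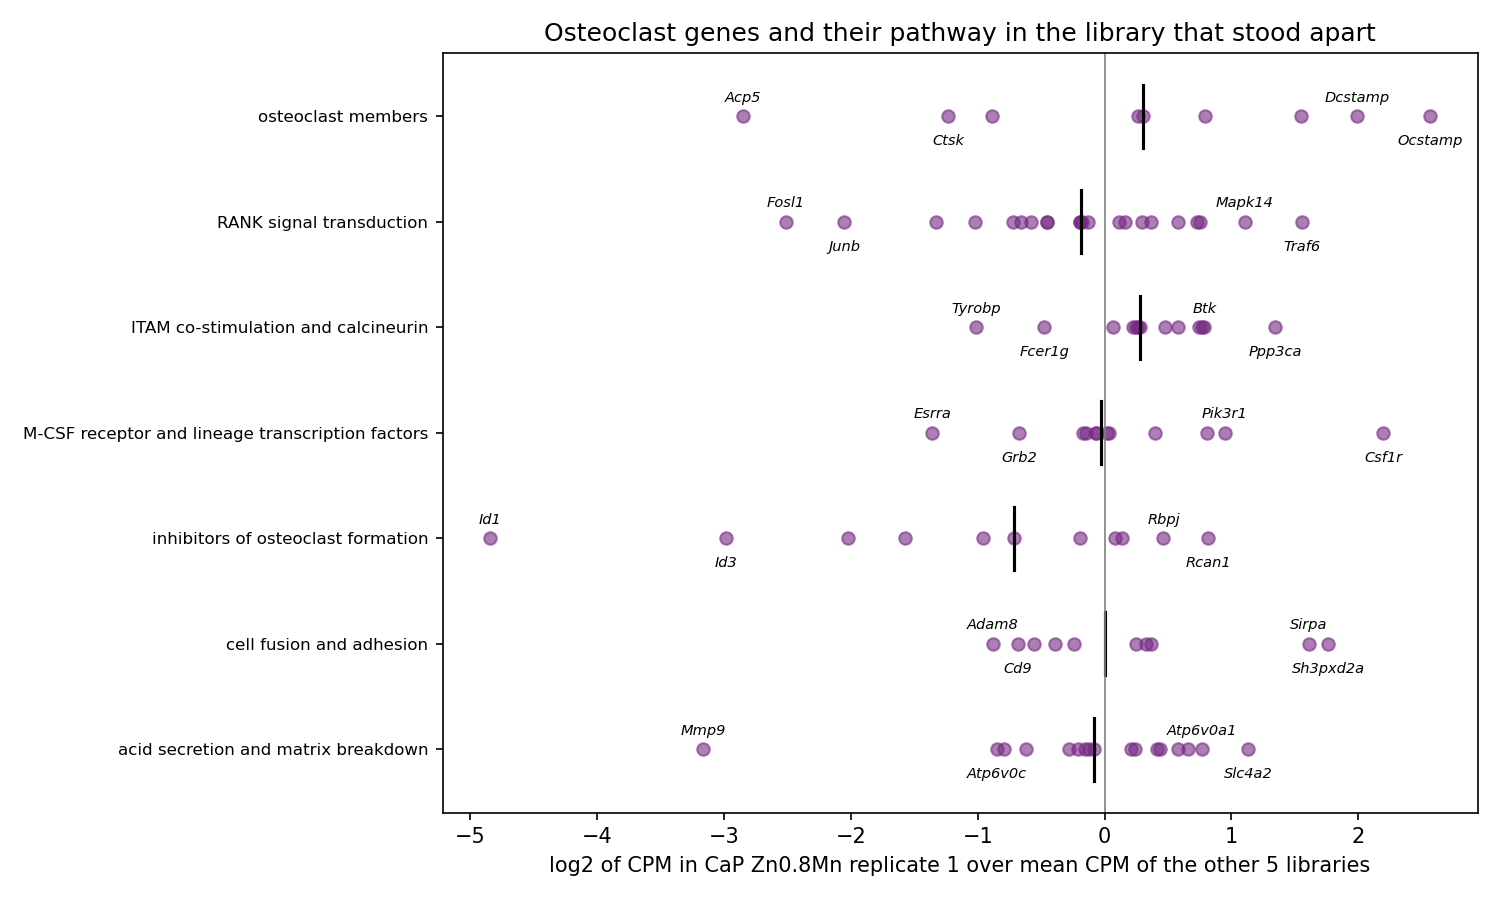
Log2 ratio of CPM in CaP Zn0.8Mn replicate 1 to the mean of the other 5 libraries for each tested osteoclast gene (top row) and tested genes of the 6 pathway lists, with a bar at the median of the genes drawn. Members run from Acp5, 7.20-fold lower, to Ocstamp, 5.94-fold higher, and every list has genes on both sides of 0.

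The genes whose profile over the 6 libraries was most like each member's were found among 9765 genes of mean CPM at least 5, by the root mean square difference of log2 CPM centred on each gene's mean. For Acp5 they were Chrnb1 (0.072) and Ier3 (0.13), where the median gene differed by 1.06. For Ctsk they were 2610020C07Rik (0.11) and Jun (0.11), for Tnfrsf11a Lrrc58 (0.026) and Camk2d (0.029), and for Nfatc1 Pde12 (0.019) and Prex1 (0.029). For Mitf they were Vps13d (0.031) and Syne1 (0.044), for Dcstamp Map3k9 (0.061) and Synpo (0.083), and for Atp6v0d2 Tango6 (0.099) and Sema4g (0.11). Low-count Ocstamp was nearest to Egr2 (0.20) and Igf1 (0.24), and low-count Oscar to Creb5 (0.19) and Stard5 (0.20). Among the members themselves, Tnfrsf11a and Nfatc1 were the most alike (0.095), followed by Dcstamp with Mitf (0.24). The median gene differed by 0.27 from Tnfrsf11a, 0.28 from Nfatc1, 0.77 from Dcstamp and 0.60 from Mitf. All these distances include the shift in CaP Zn0.8Mn replicate 1, and likeness without that library was not tested.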

How the data were processed

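RNA-seq of 6 libraries (3 groups of 2) was used. The authors deposited whole-number read counts per gene, not normalized, and FPKM values, per the file headers; which aligner, counter and strand setting were used is not given in the sources used here. Build mm9 is named in the submitters' processing notes, but the deposited start and end of all 10 genes are those of GRCm38, and coordinates are printed as such. From the counts, edgeR 4.0.16 (R 4.3.3; TMM, filterByExpr, robust quasi-likelihood fit of group means over all 6 libraries) tested 13156 genes, two-sided, with Benjamini-Hochberg adjustment. SE is the absolute log2 fold change over the square root of F. Calcr was filtered out. CPM were scaled with TMM factors.

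The genes and pathway lists were chosen with earlier results of these data known. Pathway genes named are the 2 of lowest unadjusted p in each comparison and list, and 1 gene of the inhibitor list is not reported here. Likeness used a prior count of 3. The alternatives were RLE or library totals, DESeq2 1.42.0, limma-voom (limma 3.58.1), no filter, a replicate block, only the 4 libraries compared, limma on log2(FPKM + 1) and log2(FPKM + 0.1), the latter also without the filter of mean FPKM 1, and each library left out. The tables hold 0 columns of other samples.

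Replicates follow the numbers in the sample titles. Within groups, counts differed by more than sampling noise (chi-square per gene 6.17 for CaP Zn0.8Mn0.1Li, 283 for CaP Zn0.8Mn and 11.7 for CaP Zn), so none was taken for a library deposited again, which does not show separate cultures.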

Additional observations from a re-analysis of the deposited data

How the results depend on the processing

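Across 63 values for members and named pathway genes, 951 of 1053 alternative values kept their direction and stayed uncalled, and 37 gained a call. Members gained calls only without CaP Zn0.8Mn replicate 2, which leaves the library that stood apart alone in its group. Most tested genes were called there as well, so these gains are no result about the members. The pathway genes had been named for a low p in the same comparisons. No value could lose a call, since the edgeR fit they were set against (TMM, filterByExpr, all libraries) called no gene. Whether same-numbered libraries belong together is not known. Their deviations correlated at r = -0.16 (CaP Zn0.8Mn0.1Li with CaP Zn), 0.26 (CaP Zn0.8Mn with CaP Zn) and -0.095 (CaP Zn0.8Mn0.1Li with CaP Zn0.8Mn). With 2 libraries a group these values cannot settle it. With the replicate number as a block, 0 members were called in each comparison. The direction turned in 65 values, 19 of them with no library left out, all of these near 0 (log2 scale); the cause was not tested. For CaP Zn0.8Mn0.1Li relative to CaP Zn these were Acp5 with the block (0.080), Atp6v0d2 with library totals (-0.011) and the block (-0.015), Mitf with library totals (-0.040), no filter (-0.010) and the block (-0.032), and Tnfrsf11a with RLE (0.0028), DESeq2 (0.0029), limma-voom (0.00095), only 4 libraries (0.00045), log2(FPKM + 1) (0.0018) and log2(FPKM + 0.1) (0.0020 with and without the filter). For CaP Zn0.8Mn relative to CaP Zn they were Tnfrsf11a with library totals (-0.0057) and no filter (-0.023). For CaP Zn0.8Mn0.1Li relative to CaP Zn0.8Mn they were Tnfrsf11a with no filter (0.010), log2(FPKM + 1) (0.00088) and log2(FPKM + 0.1) (0.0019 with and without the filter).

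Leaving out 1 library at a time moved the number of members called over 0 to 0 in CaP Zn0.8Mn0.1Li relative to CaP Zn, 0 to 6 in CaP Zn0.8Mn relative to CaP Zn and 0 to 7 in CaP Zn0.8Mn0.1Li relative to CaP Zn0.8Mn, and the 6 and 7 came only without CaP Zn0.8Mn replicate 2. Log2 fold changes that turned direction in these omissions ranged as follows. In CaP Zn0.8Mn0.1Li relative to CaP Zn they were Acp5 (-0.30 to 0.19), Tnfrsf11a (-0.068 to 0.069), Atp6v0d2 (-0.20 to 0.30), Mitf (-0.13 to 0.11) and Tfec (-0.095 to 0.28). In CaP Zn0.8Mn relative to CaP Zn they were Tnfrsf11a (-0.21 to 0.21), Nfatc1 (-0.26 to 0.16), Dcstamp (-0.22 to 1.78), Atp6v0d2 (-0.42 to 0.72), Mitf (-0.067 to 1.53), Ppp3ca (-0.15 to 1.21), Sh3pxd2a (-0.043 to 1.78) and Slc4a2 (-0.061 to 1.12). In CaP Zn0.8Mn0.1Li relative to CaP Zn0.8Mn they were Tnfrsf11a (-0.22 to 0.21), Nfatc1 (-0.39 to 0.038), Ocstamp (-2.25 to 0.55), Atp6v0d2 (-0.70 to 0.45), Mitf (-1.53 to 0.070), Traf6 (-1.69 to 0.0072), Pik3r1 (-0.97 to 0.074) and Sh3pxd2a (-1.70 to 0.13). With DESeq2 and without CaP Zn0.8Mn replicate 1, the direction also turned for Tnfrsf11a (0.0013) in the first comparison, for Tnfrsf11a (-0.21), Dcstamp (-0.22), Atp6v0d2 (-0.42), Mitf (-0.066), Ppp3ca (-0.14), Sh3pxd2a (-0.040) and Slc4a2 (-0.060) in the second, and for Tnfrsf11a (0.21), Nfatc1 (0.037), Ocstamp (0.55), Atp6v0d2 (0.45), Mitf (0.070), Traf6 (0.0065), Pik3r1 (0.074) and Sh3pxd2a (0.13) in the third. At this depth Oscar, Ocstamp and Calcr, with few counts, allow no more than wide intervals or none.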

Other observations

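Some pathway genes outside the naming rule also stood far from the other 5 libraries in CaP Zn0.8Mn replicate 1, and they were chosen after their values were seen. Id1, which encodes an inhibitor of helix-loop-helix factors, had 7 counts (0.463 CPM) in that library against 5.91 to 17.9 CPM, and its relative Id3 had 2.18 CPM against 15.8 to 19.1 CPM. The AP-1 genes Fosl1 (1.39 CPM against 7.16 to 8.93 CPM) and Junb (63.4 CPM against 213 to 285 CPM) were lower there. Tyrobp, the ITAM adaptor DAP12, read 200.2 CPM against 331 to 434 CPM, while Trem2, a receptor that signals through it, read 227 CPM against 145 to 178 CPM. The transcription factor genes Spi1 (PU.1), Tfeb and Tfe3 were within 1.5-fold of the other libraries' mean, at 204, 29.9 and 103 CPM. On CaP Zn0.8Mn0.1Li, Id1 had 17.9 and 15.1 CPM, against 5.91 and 12.1 CPM on CaP Zn. CaP Zn0.8Mn replicate 2 had 15.6 CPM, so a level above CaP Zn was not particular to the alloy with lithium. Without CaP Zn0.8Mn replicate 1, the edgeR log2 fold change of CaP Zn0.8Mn0.1Li relative to CaP Zn was 0.89 ± 0.27 (SE). For CaP Zn0.8Mn, then resting on replicate 2 alone, it was 0.81 ± 0.33. Neither passed the threshold.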
